A study of Rattus norvegicus with 9 samples.

Results

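The gene set described here holds 9 of the 41801 genes listed in the count tables, chosen by symbol: the osteoclast genes Acp5, Ctsk, Ocstamp, Dcstamp, Atp6v0d2 and Nfatc1 (6 genes), and the RANK system Tnfsf11, Tnfrsf11a and Tnfrsf11b (3 genes). All 9 had UMIs, from 469 of Ocstamp to 77271 of Acp5 over the 8 libraries. They were followed across cell populations, and cells with UMIs of several osteoclast genes were counted. The cells came from the proximal tibia of male Sprague-Dawley rats aged 6 to 8 weeks. All had a 3-mm circular osteotomy and a 4-mm full-thickness skin wound on the back of a hind foot. TO rats received no further treatment. TOE rats also received radial shock waves at the osteotomy on day 2 after surgery, and those of the 4d libraries again on day 4. The TOE libraries of 2d were taken before the session of day 4, so TOE libraries of 2d and 4d differ in the number of sessions. Tissue was taken 0, 4 or 24 h after the session of day 2 or day 4, which gives the library names. The TO libraries, timed by the same sessions, are 2d 0h (before any shock wave) and 2d 4h, then 4d 4h and 4d 24h. The TOE libraries are 2d 4h and 2d 24h, then 4d 4h and 4d 24h. A library of 24h was thus collected on the day after the session it is named for. Values below follow this order. For the single-cell experiment, the series' design text gives 9 rats and 9 samples, and how many rats entered 1 library was not stated; without an analysis of TO 2d 24h here, TOE 2d 24h has no matched TO library.

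Each condition was 1 library, so no difference between conditions was tested, no value carries a replicate error, and differences between rats, between dissections and between treatments cannot be told apart. Levels are CPM, which divide the UMIs of a gene by those of all genes in the same cells, with exact 95% intervals that cover counting error only. The 8 libraries held 95954800 to 144146202 UMIs, and 110483 cells with a median of 4470 to 5634.5 UMIs per library were kept. Pairs of libraries shared 40 to 73 barcode sequences, apart from TOE 2d 4h and TOE 4d 4h, which shared 110. In a value summed over many cells, fewer cells of a type and less RNA per cell cannot be told apart, so levels are also given within cell populations.

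Osteoclasts are the cells that resorb bone. They form when precursors of the monocyte and macrophage line fuse into multinucleate cells under the cytokine RANKL (Tnfsf11), which stromal cells, osteoblast-lineage cells and lymphocytes present to the receptor RANK (Tnfrsf11a) on the precursor. Osteoprotegerin (Tnfrsf11b) is a soluble decoy receptor that binds RANKL and keeps it from RANK. RANK acts through TRAF6 and NF-kappaB to raise NFATc1 (Nfatc1), the transcription factor that drives the osteoclast program. That program includes the fusion proteins DC-STAMP (Dcstamp) and OC-STAMP (Ocstamp), the proton pump subunit Atp6v0d2, tartrate-resistant acid phosphatase (Acp5) and cathepsin K (Ctsk), the protease that digests bone collagen. Several of these genes are also used by other cells, among them Acp5 in macrophages and Nfatc1 in lymphocytes.

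Promoters of the resorption and fusion genes are shown because NFATc1, itself one of the 9 genes, is known to act on several of them, and that of Tnfsf11 because cells of separate lineages, mesenchymal-like and B-cell-like, held its UMIs. Windows of 300 bases, 250 before and 50 from an annotated start, were taken from RefSeq on the rat build GRCr8. Of the 9 genes, 4 matched an entry. Capitals mark matches, on either strand, to GGAAA (the NFAT core), CATGTG (an E-box bound by MITF-type factors), GAGGAA (the PU.1 core) or TGTGGT (the RUNX core). Each sequence is written 5′ to 3′ in the direction of its gene.
Ctsk, chr2:185747298-185747597, plus strand: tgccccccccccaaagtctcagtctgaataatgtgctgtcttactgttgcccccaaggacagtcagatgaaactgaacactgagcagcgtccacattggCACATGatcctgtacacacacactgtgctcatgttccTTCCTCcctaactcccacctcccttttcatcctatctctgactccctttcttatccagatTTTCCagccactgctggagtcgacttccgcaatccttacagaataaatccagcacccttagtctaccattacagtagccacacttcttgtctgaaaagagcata
Ocstamp, chr3:174560858-174561157, minus strand: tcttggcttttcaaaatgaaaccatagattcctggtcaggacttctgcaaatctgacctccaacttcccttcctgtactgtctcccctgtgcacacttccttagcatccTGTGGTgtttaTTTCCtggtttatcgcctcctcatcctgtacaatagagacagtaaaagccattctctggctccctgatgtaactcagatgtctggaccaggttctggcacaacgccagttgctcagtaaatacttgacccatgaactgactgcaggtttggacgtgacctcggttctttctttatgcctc
Acp5, chr8:28943880-28944179, minus strand: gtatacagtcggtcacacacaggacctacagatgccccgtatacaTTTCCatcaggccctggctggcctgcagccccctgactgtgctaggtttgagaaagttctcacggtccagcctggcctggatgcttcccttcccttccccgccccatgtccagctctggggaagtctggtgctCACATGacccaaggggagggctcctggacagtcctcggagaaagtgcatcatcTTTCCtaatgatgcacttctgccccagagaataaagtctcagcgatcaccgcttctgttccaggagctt
Tnfsf11, chr15:60114430-60114729, minus strand: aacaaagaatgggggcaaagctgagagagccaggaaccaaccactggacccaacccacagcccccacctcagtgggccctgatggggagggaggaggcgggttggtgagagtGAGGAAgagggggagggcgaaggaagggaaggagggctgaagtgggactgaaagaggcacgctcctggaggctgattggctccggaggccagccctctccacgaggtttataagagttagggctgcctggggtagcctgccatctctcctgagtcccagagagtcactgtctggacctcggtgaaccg

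The Ctsk window held GGAAA starting 54 bases before the gene start, GAGGAA at 114 and CATGTG at 151. The Ocstamp window held GGAAA at 130 bases and TGTGGT at 141. Acp5 had 2 annotated starts, both inside the gene, whose upstream end lies at chr8:28946639. Its distances count from those starts. The window of the downstream start, printed above, held GGAAA at 19 and 205 bases and CATGTG at 72, whereas that of the upstream start, at chr8:28945881-28946180, held none of the motifs. The Tnfsf11 window held GAGGAA at 138 bases. Neither TGANTCA (AP-1) nor CACGTG was found in these windows, on either strand. Of 33469 promoter windows of the same length, 62.7% held GGAAA, 27.6% GAGGAA, 17.3% TGTGGT, 14.0% CATGTG, 7.33% TGANTCA and 6.42% CACGTG. These letters are therefore common, and a match describes the window without showing a bound site.

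Over all cells, 8 of the 9 genes were highest in TOE 2d 24h, and the span from the lowest to the highest library ran from 1.82-fold for Nfatc1 to 275-fold for Atp6v0d2. Cathepsin K (Ctsk) was at 25.8, 13.3, 15.1 and 27.3 CPM in the TO libraries and at 8.76, 179, 27.6 and 11.2 CPM in the TOE libraries. TOE 2d 24h (177 to 181 CPM) stood above all 7 other libraries, while of the other TOE values 8.76 and 11.2 CPM lay below the TO range and 27.6 CPM just above it. The span of Ctsk was 20.4-fold.

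Atp6v0d2, a subunit of the pump that acidifies the resorption pit and is also needed for fusion, followed a similar order. It was at 4.56, 1.93, 2.37 and 4.40 CPM in the TO libraries in the same order and at 0.626, 21.2, 3.74 and 0.0770 CPM in the TOE libraries. TOE 2d 24h was again the highest, and TOE 4d 24h held only 7 UMIs of the gene, an interval of 0.0309 to 0.159 CPM. Ocstamp, which is needed for fusion, was sparse, at 0.266, 0.308, 0.304 and 0.214 CPM in TO and 0.538, 1.45, 0.427 and 0.231 CPM in TOE. The Ocstamp intervals of the TO libraries overlapped one another, and that of TOE 2d 24h (1.25 to 1.66 CPM) lay above all others.

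Acp5, the acid phosphatase used to stain osteoclasts, was at 89.9, 56.7, 66.5 and 91.1 CPM in TO and at 74.9, 127, 61.0 and 70.9 CPM in TOE, a span of 2.24-fold. Nfatc1 was at 45.2, 47.4, 56.7 and 34.3 CPM in TO and at 44.5, 62.3, 54.8 and 42.5 CPM in TOE. For both genes the TO and TOE values were interleaved. Dcstamp, needed for fusion, was the exception to the order of the libraries, with 5.45, 12.7, 14.9 and 8.10 CPM in TO and 6.34, 9.28, 10.7 and 8.81 CPM in TOE, so that TO 4d 4h was the highest.

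In the RANK system, the ligand gene Tnfsf11 was at 4.65, 1.03, 0.957 and 2.30 CPM in TO and at 0.648, 6.46, 0.854 and 0.385 CPM in TOE. All 4 libraries collected at 4 h lay between 0.648 and 1.03 CPM, below the 3 libraries TO 2d 0h, TO 4d 24h and TOE 2d 24h and above TOE 4d 24h. The receptor gene Tnfrsf11a was at 2.99, 2.99, 3.39 and 1.51 CPM in TO and at 2.28, 8.88, 5.80 and 0.495 CPM in TOE. The decoy receptor gene Tnfrsf11b was at 0.555, 0.362, 0.573 and 0.0513 CPM in TO and at 0.582, 2.07, 1.53 and 0.0989 CPM in TOE. For all 3 genes, TOE 2d 24h was the highest library, and the 2 libraries of 4d 24h were the lowest for Tnfrsf11a and Tnfrsf11b.

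**Figure D1:**
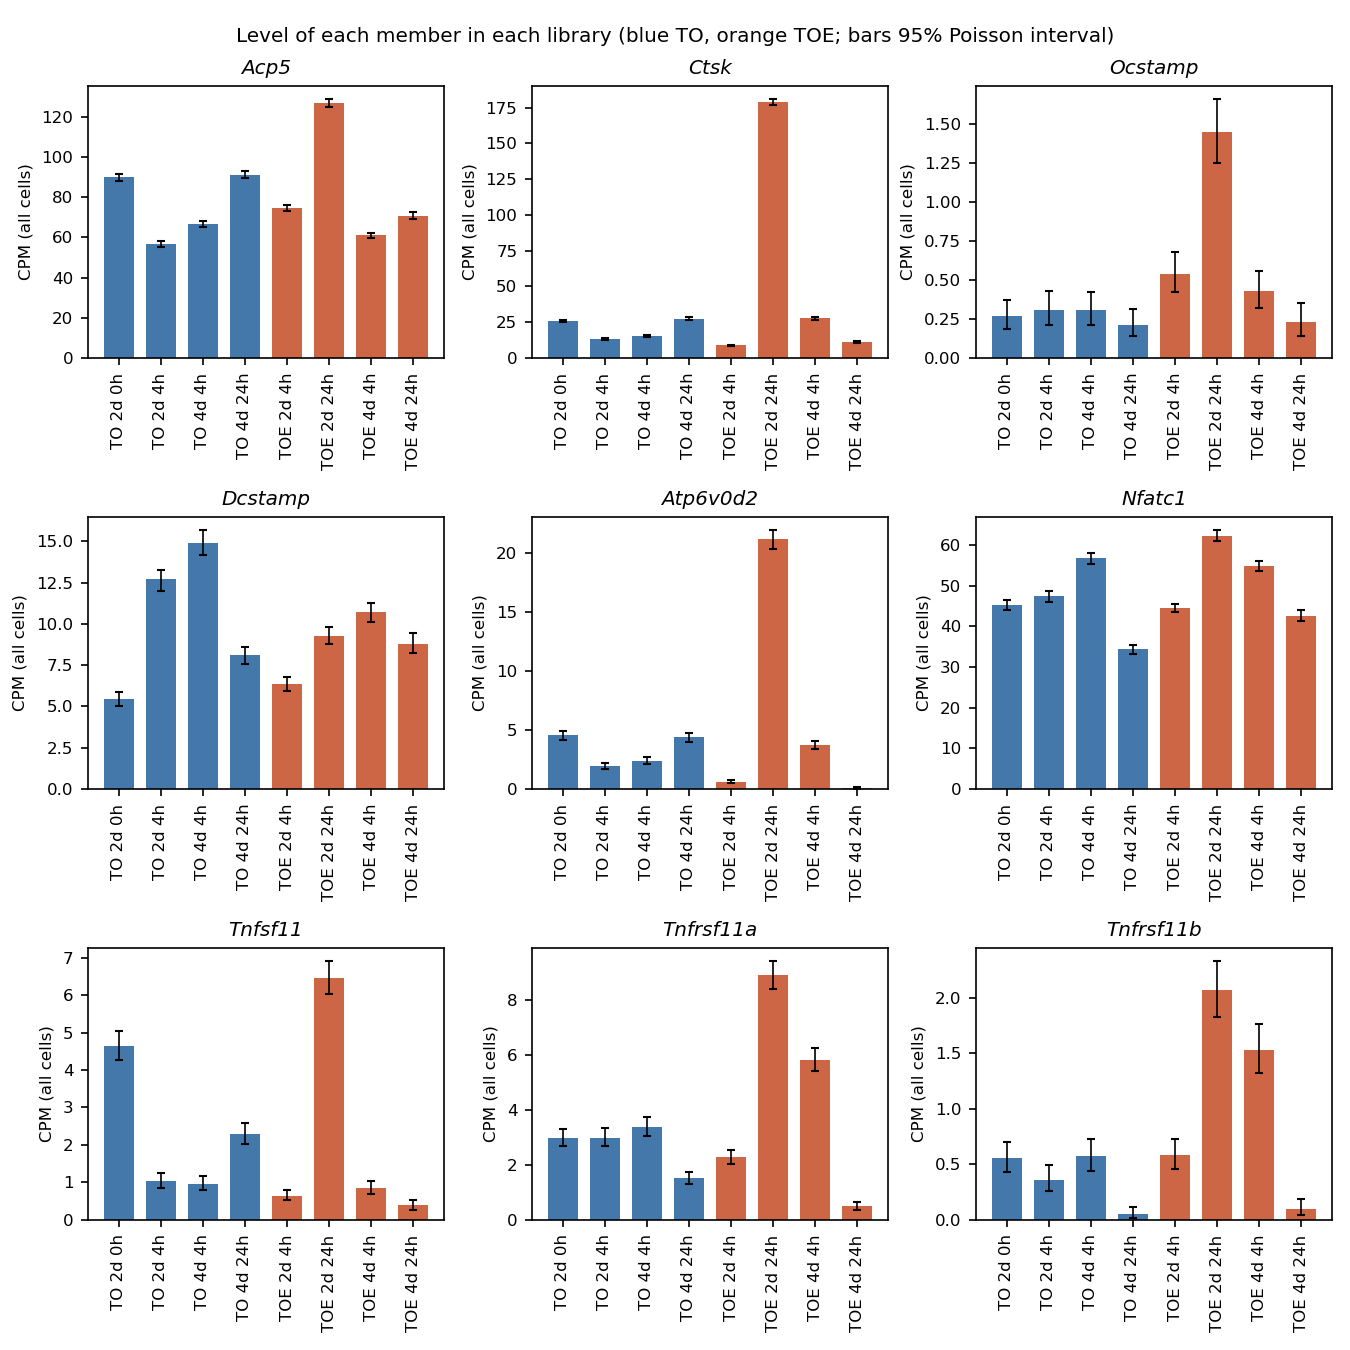
Level of each of the 9 genes in each library, in CPM over all cells kept (y axis) by library (x axis), with exact 95% Poisson intervals as bars; blue is TO and orange TOE. TOE 2d 24h is the tallest bar for every gene other than Dcstamp, where TO 4d 4h is the tallest at 14.9 CPM.

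Clustering of all cells without integration gave 12 kinds of population that differed widely in their use of the 9 genes: 11 named from fixed markers and a cluster of 400 cells, called the Ctsk cluster here since it was chosen as the cluster with the highest Ctsk level at a finer resolution. Unnamed clusters held 8.46% of the cells. The Ctsk cluster held 0.362% of all cells with a median of 26227 UMIs. It took no class name, since it raised only 4 of 8 monocyte markers, too few for the naming rule. Its leading genes were not among those markers. Those leading genes were Atp6v0d2, Mt3, Nyap2, Slc9b2, Cym, Fam25a, Siglec15 and Dgki, of which Slc9b2 and Siglec15 are known from osteoclasts. The summed markers of other lineages were low in it, with 501 CPM of B-cell markers against 5774 CPM over all cells, 459.6 against 5018 CPM of mesenchymal markers and 2171 against 32332 CPM of neutrophil markers.

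Where the UMIs of a gene lay set the 9 genes apart. Atp6v0d2 was the most concentrated, with 90.8% of its UMIs in the Ctsk cluster. Ctsk had 59.6% there, at 2203 CPM, and 21.6% in mesenchymal-like cells, at 185 CPM. Without TOE 2d 24h, the share of Ctsk in the cluster was 46.0% and its level there 1092 CPM. Since the cluster was chosen by Ctsk and built from all genes, these shares describe it and are no test.

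Ocstamp was divided among the Ctsk cluster, B-cell-like cells and macrophage-like cells, and Tnfrsf11a between the Ctsk cluster and macrophage-like cells. Ocstamp had 38.4% of its UMIs in the Ctsk cluster, 26.7% in B-cell-like cells and 21.3% in macrophage-like cells. Its level was 16.9 CPM in the Ctsk cluster, 3.57 CPM in macrophage-like cells and 0.310 CPM in B-cell-like cells, so that the B-cell share came with the large number of those cells (63764). Without TOE 2d 24h, B-cell-like cells held the largest share, 37.0%, and the Ctsk cluster 19.2%, at 8.17 CPM. Tnfrsf11a, the receptor, had 44.6% of its UMIs in the Ctsk cluster at 149 CPM and 32.5% in macrophage-like cells at 41.3 CPM. Tnfsf11 and Tnfrsf11b had 0 UMIs in the 400 cells of the Ctsk cluster.

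Within macrophage-like cells, Tnfrsf11a was at 24.4, 51.9, 36.2 and 27.1 CPM in the TO libraries and at 52.3, 41.7, 55.3 and 23.1 CPM in the TOE libraries. The TO and TOE ranges overlapped, and TOE 4d 24h rested on 25 cells and 7 UMIs. A UMI of Tnfrsf11a was found in 28.2% of macrophage-like cells at a median depth of 13239 UMIs, against 0.325% of erythroid-like cells at 6788 UMIs. In monocyte-like cells, the pool from which osteoclast precursors come, the level was lower, at 0.560, 0.807, 1.11 and 0.525 CPM in TO and 4.28, 1.19, 3.12 and 0.673 CPM in TOE. Here both TOE libraries of 4 h (3.51 to 5.16 and 2.59 to 3.73 CPM) lay above every other library, on 109 and 122 UMIs. This pattern was noticed after the values were seen and was not tested. The border between monocyte-like and macrophage-like cells also depended on resolution. At resolution 2, a cluster of 2320 cells with 1173 Tnfrsf11a UMIs was named monocyte-like, with a score of 0.87 against 0.83 for macrophage-like. No cluster was named macrophage-like at that resolution.

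Dcstamp was above all a neutrophil-like signal. Neutrophil-like cells held 67.1% of its UMIs at 77.6 CPM, monocyte-like cells 11.4% at 5.64 CPM, and the Ctsk cluster 7.60% at 64.1 CPM. A Dcstamp UMI was found in 22.9% of neutrophil-like cells (median depth 5263 UMIs), against 0.332% of B-cell-like cells at 4339 UMIs. Within neutrophil-like cells, the level was 52.8, 109, 107 and 83.5 CPM in TO and 73.2, 71.5, 80.6 and 43.5 CPM in TOE. The ranges of the arms overlapped, and in all 3 matched pairs the TO value lay above the TOE value with no overlap of the intervals, a difference between single libraries that was not tested. Neutrophil-like clusters also differed in Dcstamp: at resolution 2, a cluster of 2895 cells held 1912 UMIs and a cluster of 3105 cells held 651. The part of this makeup in the difference was not tested, and the share of all genes called in neutrophil-like cells was not computed.

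Acp5 was mostly a B-cell-like signal in these data, since B-cell-like cells held 65.5% of its UMIs, or 69.1% with every library counted equally. A UMI was found in 45.8% of B-cell-like cells (median depth 4339 UMIs), against 13.8% of erythroid-like cells at 6788 UMIs and 4.93% of neutrophil-like cells at 5263 UMIs. The level in B-cell-like cells was 135, 99.3, 119 and 140.5 CPM in TO and 122, 145, 114 and 123 CPM in TOE. Both arms covered much the same range. The Ctsk cluster had a level of 1094 CPM on 15.1% of the UMIs, and 719.7 CPM (699 to 741) without TOE 2d 24h. An unnamed cluster of 522 cells led by macrophage genes such as Cd5l and C1qc, left unnamed for its low depth (median 1436 UMIs), held 1084 Acp5 UMIs at 801 CPM and 8 Ctsk UMIs. Without TOE 2d 24h its Acp5 level was 699 CPM (652 to 748), which overlapped that of the Ctsk cluster.

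Nfatc1 was the most widely spread of the 9 genes. B-cell-like cells held 38.3% of its UMIs at 44.3 CPM, the Ctsk cluster 14.0% at 615 CPM, monocyte-like cells 12.2% at 31.3 CPM and mesenchymal-like cells 9.69% at 98.3 CPM. T/NK-cell-like cells, in which NFAT factors act downstream of the antigen receptor, were at 133 CPM on 2.62% of the UMIs. Erythroid-like cells had the lowest level, 6.54 CPM.

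**Figure D2:**
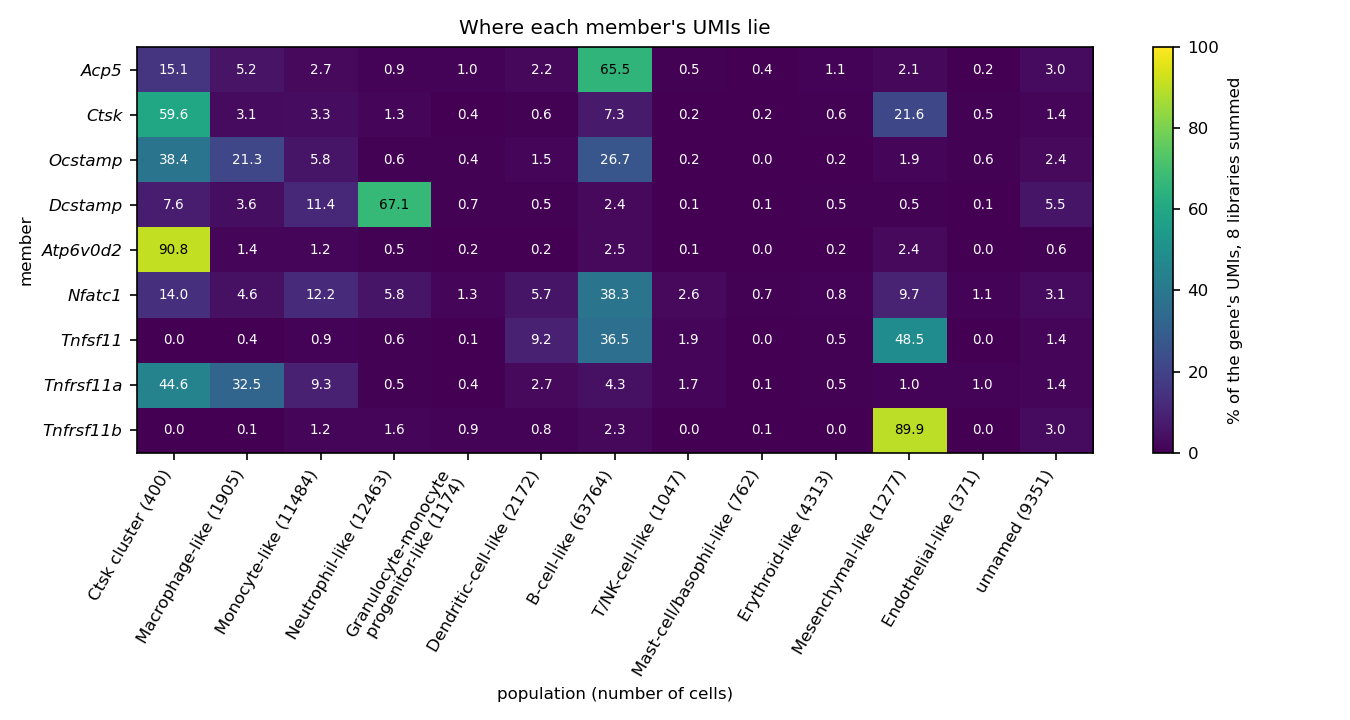
Share of the UMIs of each gene (rows) in each population (columns, with cell numbers), in percent over the 8 libraries summed; brighter cells are larger shares. Atp6v0d2 lies at 90.8% in the Ctsk cluster and Tnfrsf11b at 89.9% in mesenchymal-like cells, whereas Acp5 and Dcstamp lie mainly in B-cell-like and neutrophil-like cells.

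Cells with UMIs of several osteoclast genes were counted next. In all, 2031 cells (1.84%) had UMIs of at least 3 of the 6 osteoclast genes. There were 260, 125, 203 and 175 such cells in the TO libraries and 160, 746, 277 and 85 in the TOE libraries. TOE 2d 24h stood above all 7 others. Divided by the TO share, the TOE share came to 1.16 (0.914 to 1.48) in the pair 2d 4h, 1.26 (1.04 to 1.51) in the pair 4d 4h and 0.558 (0.426 to 0.727) in the pair 4d 24h. The direction of the first 2 turned with the definition: at 2d 4h it was 0.806 (0.532 to 1.22) counted only in monocyte-like, macrophage-like and Ctsk-cluster cells and 0.435 (0.148 to 1.15) after thinning to 2000 UMIs, and at 4d 4h it was 0.769 with monocyte-like, macrophage-like and multi-gene cells as the denominator. By population, 545 were B-cell-like, 469 mesenchymal-like, 280 in the Ctsk cluster, 215 monocyte-like and 205 macrophage-like. Among the 545 B-cell-like cells, 99.3% had Acp5, 97.1% Nfatc1 and 87.3% Ctsk, while 5.14% had Atp6v0d2, so that most of them passed by Acp5, Nfatc1 and Ctsk together.

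Ctsk UMIs were also found in cells not known to express it. The gene was detected in 10.8% of the B-cell-like cells of TOE 2d 24h, at 21.6 CPM, against 2.47% to 4.47% in the other libraries, and erythroid-like cells of TOE 2d 24h stood at 17.0 CPM of Ctsk. Free RNA was not measured here. Of erythroid-like cells, 0.556% had at least 3 of the 6 genes. Depth differed between populations as well. The mesenchymal-like cells, 36.7% of which passed the count, had a median of 31906 UMIs. Granulocyte-monocyte progenitor-like cells, with a median of 26380.5 UMIs, passed in 4.43%. After every cell of at least 2000 UMIs was thinned to 2000, 190 cells remained past the count, of which 150 lay in the Ctsk cluster and 24 in the B-cell-like population. At that equal depth, 5 of 1275 mesenchymal-like cells (0.392%) and 0 of 1135 granulocyte-monocyte progenitor-like cells passed. So did 5 of 1822 macrophage-like and 0 of 10941 monocyte-like cells, against 150 of 334 cells (44.9%) of the Ctsk cluster. The part of depth in these shares was not tested further.

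A count of at least 4 of the 6 genes gave a narrower set of 332 cells. Of these, 231 lay in the Ctsk cluster (57.8% of it), 33 were mesenchymal-like, 29 macrophage-like and 13 B-cell-like, and 0 of 4313 erythroid-like cells passed, which allows a share of up to 0.0696% by the limit of 3 counts, or 0.0855% by the Clopper-Pearson interval. All 6 genes were found in 53 cells, 52 of them in the Ctsk cluster. Cells with at least 4 genes numbered 30, 24, 25 and 21 in the TO libraries and 13, 169, 48 and 2 in the TOE libraries. The 4 TO libraries were thus close to one another, and the TOE libraries ranged from below to above all of them.

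The Ctsk cluster was also most frequent in TOE 2d 24h and least frequent in TOE 4d 24h. It held 42, 36, 31 and 41 cells in the TO libraries, 0.297%, 0.244%, 0.253% and 0.299% of all cells. In the TOE libraries it held 14, 134, 100 and 2 cells, 0.0861%, 0.952%, 0.751% and 0.0168%. Divided by the TO share, the TOE share was 0.353 in the pair 2d 4h, with an exact conditional interval of 0.176 to 0.671. It was 2.97 (1.97 to 4.60) in the pair 4d 4h and 0.0561 (0.00657 to 0.216) in the pair 4d 24h. The matched pairs therefore pointed in different directions: TOE was lower at 2d 4h and 4d 24h and higher at 4d 4h, each beyond counting error, with 1 library on each side.

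Shares of other populations were read beside that of the cluster. Mesenchymal-like cells, which also belong to the solid tissue of bone and marrow, made up 0.848%, 0.420%, 1.44% and 0.722% in TO and 0.369%, 3.52%, 1.37% and 0.671% in TOE. TOE 2d 24h was thus highest for both populations. Within all 3 matched pairs, the mesenchymal-like shares of TOE and TO were near each other. In the 3 TO libraries with a TOE partner, macrophage-like cells made up 1.31%, 2.14% and 0.795%, and in those partners 0.818%, 2.99% and 0.210%. Monocyte-like cells made up 12.0%, 10.8% and 8.73% of the same TO libraries and 10.4%, 18.5% and 5.50% of the TOE partners. Both populations thus lay on the same side as the Ctsk cluster in all 3 pairs. TOE 4d 24h was also low in other lineages, with 0.679% erythroid-like cells against 6.03% in TO 4d 24h and 0.243% T/NK-cell-like cells against 1.44%, the lowest shares of the 8 libraries for both, and it was higher in neutrophil-like cells, 23.6% against 15.1%. This library therefore stood apart in more than the Ctsk cluster. The part of dissection in these shares was not tested.

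Inside the Ctsk cluster, the level of Ctsk itself was 952, 810.4, 324 and 2269 CPM in the TO libraries and 1478, 3936, 1038 and 3728 CPM in the TOE libraries. The value of TOE 2d 4h rested on 14 cells and that of TOE 4d 24h on 2. The cells of the cluster were not alike. Their depth ran from 500 to 97377 UMIs, 66 of the 400 had under 2000 UMIs, and 17 had none of the 6 genes. In TOE 4d 4h, 23 of the 100 cells were under 2000 UMIs and 39 had at least 4 genes. In TOE 2d 24h, 22 of 134 were under 2000 UMIs and 103 had at least 4. In TO 4d 24h, 17 of 41 were under 2000 UMIs, 16 had at least 4 genes and 7 had none. The higher share of TOE 4d 4h was smaller when counted by at least 4 genes, at 1.77 (1.07 to 2.99) times that of TO 4d 4h. For the pair 2d 4h the same count gave 0.492 (0.230 to 1.01), and for the pair 4d 24h it gave 0.109 (0.0124 to 0.448). The barcodes of 9 cells of the cluster also occurred in another library. The cluster rested on the filter, since with a stricter filter or with doublets kept the cluster with the highest Ctsk level held 1863 or 2161 cells.

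**Figure D3:**
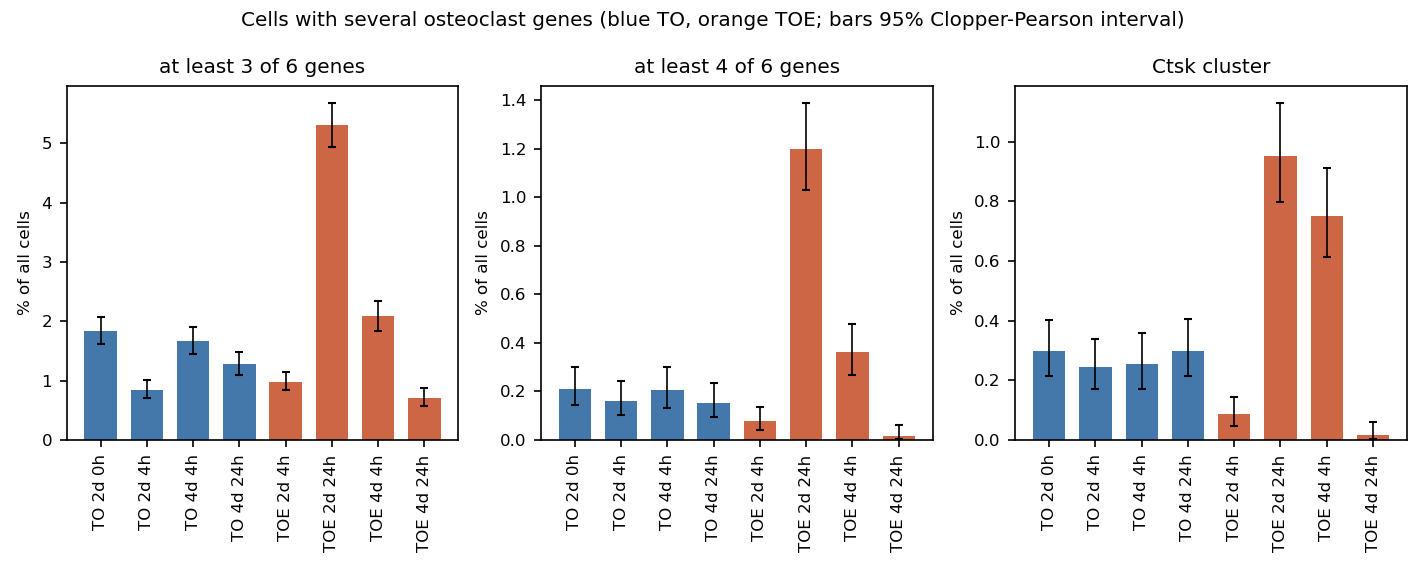
Share of all cells (y axes, percent) with UMIs of at least 3 of 6 osteoclast genes, with at least 4 of 6, and in the Ctsk cluster, by library (x axes), with 95% Clopper-Pearson intervals; blue is TO and orange TOE. The 4 TO libraries lie between 0.244% and 0.299% in the Ctsk cluster, whereas the TOE libraries range from 0.0168% to 0.952%.

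In the Ctsk cluster, pathway genes that are not among the 9 were read from fixed lists, against the other monocyte-like and macrophage-like cells. These lists were chosen with earlier results known, and the genes took part in the clustering, so the values are a description. Over all 18848 genes compared, 17.2% were at least 2-fold higher in the cluster and 17.7% at least 2-fold lower, and the median log2 ratio was 0.10. Of 8 members compared, 7 were at least 2-fold higher, from which nothing is read since the cluster was chosen by Ctsk and built from all genes. Of the 20 resorption and fusion genes, 16 were at least 2-fold higher and 1 lower, with a median log2 ratio of 2.20. They were led by the sodium-proton exchanger Slc9b2 (9.63), the calcitonin receptor Calcr (7.50), the fusion-linked lectin Siglec15 (6.39), the gelatinase Mmp9 (6.03), carbonic anhydrase Car2 (4.42) and the kinase Src (4.38). The pump subunit Atp6v0a1, a paralogue of the osteoclast subunit Tcirg1, was lower at -1.81.

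The signalling relays below RANK differed little, with 0 of 16 at least 2-fold higher and 2 lower, Nfkb1 at -1.57 and the adaptor Gab2 at -1.26 on the log2 scale. Of 11 co-stimulation and lineage genes, 3 were higher, the AP-1 partner Jdp2 (3.68), the repressor Prdm1 (3.20) and the M-CSF receptor Csf1r (1.98), and 2 were lower, Tfec (-2.54) and Fcer1g (-1.10). Of the 10 known repressors of osteoclast formation, 7 were at least 2-fold lower, against 17.7% of all genes, and 0 higher, with a median of -1.71. Among those lower were the inhibitory receptor Lilrb4 (-3.58) and the transcription factors Irf8 (-3.00) and Nr4a1 (-2.48). Of 12 stromal regulators with enough UMIs, 3 were higher and 5 lower.

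**Figure D4:**
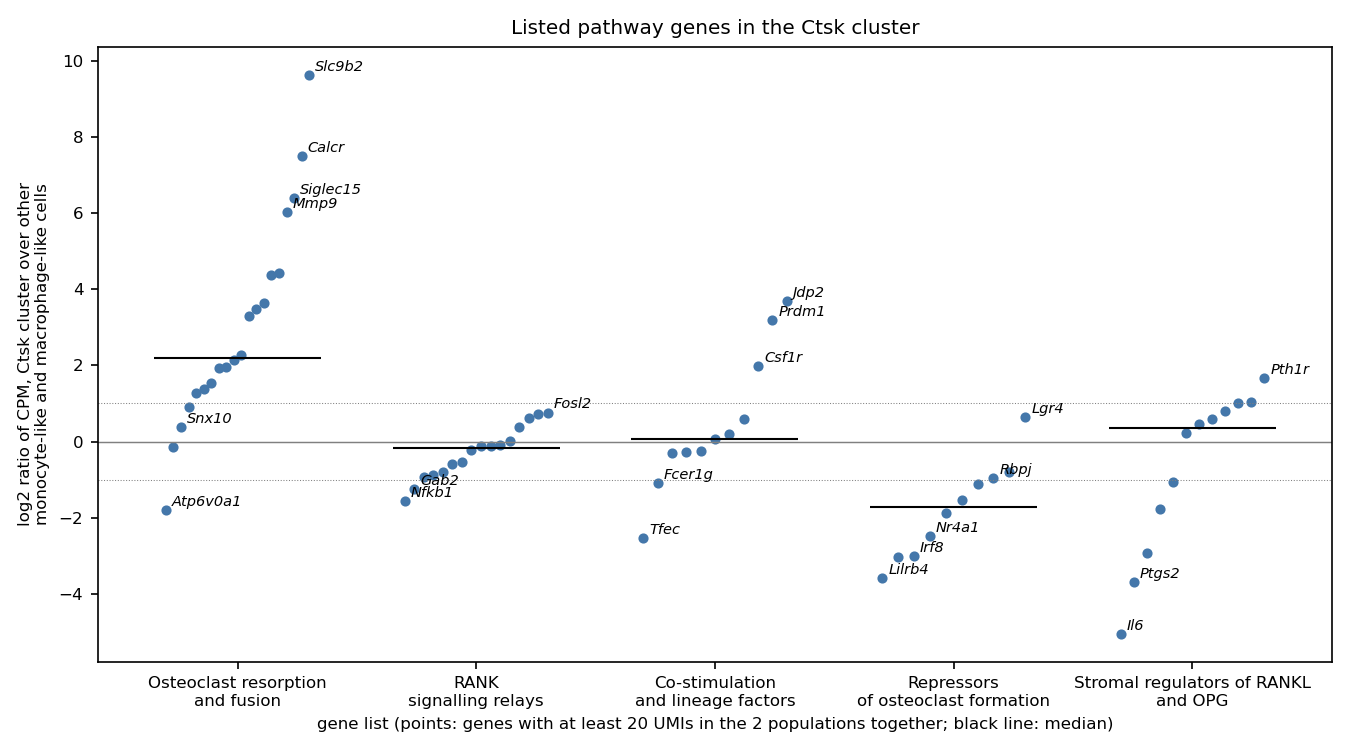
Log2 ratio of CPM in the Ctsk cluster over the other monocyte-like and macrophage-like cells (y axis) for the genes of 5 fixed lists (x axis); each point is a gene, the black line the median of its list, and the dotted lines 2-fold. Most resorption and fusion genes lie above the upper dotted line (median 2.20) and most repressors below the lower one (median -1.71).

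The same lists were read in the 700 monocyte-like, macrophage-like and Ctsk-cluster cells with at least 3 osteoclast genes, against the 13089 other cells of those populations. Of the 700 cells, 280 lay in the Ctsk cluster, so this reading is not independent of the former. Slc9b2, for example, had 2923 UMIs in these cells and 2992 in the cluster. Over all genes, 11.3% were at least 2-fold higher and 6.46% at least 2-fold lower. Of 8 members, 7 were at least 2-fold higher: the 6 osteoclast genes, by choice, and Tnfrsf11a (log2 ratio 3.45), which was not part of the count. Of the 20 resorption and fusion genes 13 were higher and 0 lower, of the repressors 0 were higher and 2 lower. Genes with the largest ratio, in at least 10% of the cells, were Atp6v0d2 (560.2-fold), Fam25a (253-fold), Slc9b2 (203-fold), the metallothionein Mt3 (165-fold), Ctsk (162-fold), Lnx1 (140.4-fold), Nyap2 (118-fold) and the collagen-binding integrin Itga2 (85.4-fold). They were followed by the creatine transporter Slc6a8, LOC120103614, LOC100361913, Cdk18, Myo1d, Esyt3 and Qprt, at 55.6-fold to 69.3-fold. These ratios rest on the libraries summed: without TOE 2d 24h, Fam25a was at 52.9-fold, Ctsk at 106-fold and LOC120103614 at 125-fold, whereas Atp6v0d2 (687-fold), Slc9b2 (185-fold) and Mt3 (202-fold) moved by less than 1.5 times. Mt3 and Slc6a8 had UMIs in 34.9% and 27.3% of these cells.

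In the matched pairs, a gene was called when its CPM in TOE and TO differed by at least 2-fold, on at least 20 UMIs. Over all cells at 2d 4h, 11.9% of all genes were called, and of the 9 members 1 was, Atp6v0d2, with 85 UMIs in TOE and 213 in TO (log2 ratio -1.62). Dcstamp fell just short of the limit, with a ratio of 0.501 (0.460 to 0.546). At 4d 4h, 6.25% of all genes were called and again 1 of 9 members, Tnfrsf11b, with 197 UMIs against 64 (log2 ratio 1.41). Ctsk and Tnfrsf11a were at ratios of 1.83 (1.73 to 1.94) and 1.71 (1.51 to 1.94) in that pair. Both counts of members were near the share of all genes.

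At 4d 24h, 25.0% of all genes were called, the most of the 3 pairs, 7.30% as lower in TOE, and 4 of the 8 members with enough UMIs were lower. These were Atp6v0d2 (7 against 514 UMIs, log2 ratio -5.74), Tnfsf11 (35 against 269, -2.56), Tnfrsf11a (45 against 176, -1.59) and Ctsk (1017 against 3197, -1.29). For Tnfsf11, B-cell-like cells were at 0.0436 CPM in TOE against 3.53 in TO. Mesenchymal-like cells held 22 against 27 UMIs of it, a ratio of 1.29 (0.698 to 2.34). Acp5 (-0.36), Dcstamp (0.12), Ocstamp (0.12) and Nfatc1 (0.31) stayed within 2-fold. The median of the members was -0.83, against 0.14 over all genes.

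Within monocyte-like and macrophage-like cells together, Ctsk cluster included, 8.19% of genes were called at 2d 4h and 1 of 7 members, Atp6v0d2 (-1.26). At 4d 4h, 6.11% were called and 1 of 7 members, Ctsk (1.02). At 4d 24h, 21.6% were called, 8.20% as lower in TOE, and 4 of 6 members, all lower in TOE: Atp6v0d2 (-5.96), Tnfrsf11a (-2.04), Acp5 (-1.97) and Ctsk (-1.81). In that pair, 10 of 19 resorption and fusion genes were also at least 2-fold lower and 0 higher, with a median of -1.08, against 0.15 over all genes.

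With the Ctsk cluster left out, Ctsk was at -0.28 at 4d 4h and 0.15 at 4d 24h, Acp5 at 0.10 at 4d 24h, and 0 members were called in either pair. The cluster was chosen by Ctsk and held 59.6% of its UMIs and 90.8% of those of Atp6v0d2, and Atp6v0d2 no longer reached 20 UMIs in the pair 4d 24h, so these losses follow in part from how the cluster was chosen. At 2d 4h the member then called was Ocstamp, higher in TOE with 40 against 16 UMIs (log2 ratio 1.32). Those 40 UMIs lay in 12 cells, 11 of them in 1 cell. Of all genes in these cells, 8.20% were called in the pair 2d 4h, 6.57% in the pair 4d 4h and 21.5% in the pair 4d 24h. In the pair 4d 24h, 6 of 17 resorption and fusion genes were still at least 2-fold lower and 2 higher, with a median of -0.33. Of all 14011 genes compared there, 1099 were lower, and the median was 0.16. Nfatc1 and Tnfrsf11a stayed within 2-fold in the remaining monocyte-like and macrophage-like cells of all 3 pairs when both populations were summed. In monocyte-like cells alone, Tnfrsf11a was at 4.28 CPM in TOE against 0.807 in TO in the pair 2d 4h, a ratio of 5.30 (3.27 to 9.03). In the pair 4d 4h it was at 3.12 against 1.11, a ratio of 2.82 (1.75 to 4.78). Those ratios rest on the border drawn at resolution 1. Some other members also differed by class. In macrophage-like cells at 2d 4h, Dcstamp was at a ratio of 5.44 (2.70 to 11.9), on 35 UMIs in TOE against 11 in TO. Ocstamp was at 5.13 (2.53 to 11.3), on 33 against 11, and Ctsk at 0.428 (0.170 to 0.948), on 8 against 32. At 4d 24h, Dcstamp was at 10.3 (4.12 to 29.3) and Acp5 at 2.42 (1.81 to 3.22), on 25 TOE cells. Dcstamp in monocyte-like cells was then at 0.467 (0.244 to 0.840). All these ratios within a single class were picked after the values were seen and rest on the same border. The share of all genes called within either class alone was not computed, so nothing is read from them.

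Osteoprotegerin was centred on mesenchymal-like cells, 1277 cells with a median of 31906 UMIs. They held 89.9% of the Tnfrsf11b UMIs and 48.5% of those of the RANKL gene Tnfsf11, and TOE 2d 24h supplied 496 of the cells. Without that library the Tnfsf11 share of mesenchymal-like cells was 28.2%, and B-cell-like cells held the most, 667 of 1318 UMIs or 50.6%. Over all libraries, B-cell-like cells held 36.5% of the Tnfsf11 UMIs at 1.98 CPM, dendritic-cell-like cells 9.22% at 4.62 CPM and T/NK-cell-like cells, a known source of RANKL, 1.88% at 4.46 CPM. In dendritic-cell-like cells the level lay between 2.37 and 6.31 CPM in all 8 libraries.

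Tnfsf11 in mesenchymal-like cells was at 31.5, 35.1, 9.56 and 8.47 CPM in the TO libraries and at 14.3, 30.7, 9.40 and 10.9 CPM in the TOE libraries. TO 2d 0h, TO 2d 4h and TOE 2d 24h were high, and the 4 libraries of 4d were low, with overlapping intervals. Tnfrsf11b was at 13.7, 21.6, 9.73 and 1.88 CPM in TO and at 56.6, 11.0, 36.6 and 2.97 CPM in TOE. Both TOE libraries of 4 h (44.2 to 71.4 and 31.5 to 42.3 CPM) lay above all other libraries, and both libraries of 4d 24h, with 6 UMIs each, lay below.

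Among mesenchymal-like cells at 2d 4h, 9.39% of all genes were called and 2 of 5 members with enough UMIs: Tnfsf11 was lower in TOE (18 against 52 UMIs, ratio 0.408, interval 0.225 to 0.709) and Tnfrsf11b higher (71 against 32, ratio 2.62, 1.70 to 4.10). At 4d 4h, 10.6% were called and 1 of 5 members, Tnfrsf11b (183 against 58 UMIs, ratio 3.76, 2.79 to 5.15), while Tnfsf11 was at 0.983 (0.654 to 1.47), or 1.60 (0.981 to 2.63) without the cell with the most UMIs in each library. At 4d 24h, 18.7% were called and 0 of 4 members, and Tnfsf11 was at 1.29 (0.698 to 2.34). The 2d 4h pair rested on 60 and 62 cells.

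The ratio of Tnfsf11 to Tnfrsf11b UMIs, which compares libraries and not the amounts of the proteins, was 2.29, 1.62, 0.983 and 4.50 in mesenchymal-like cells of the TO libraries. In the TOE libraries it was 0.254, 2.79, 0.257 and 3.67. TOE 2d 4h (0.142 to 0.430) and TOE 4d 4h (0.182 to 0.356) lay below all 6 other libraries, including their matched TO libraries, with no overlap of the intervals. In the pair 4d 24h the intervals, 1.44 to 11.1 in TOE and 1.82 to 13.3 in TO, overlapped. Single cells weighed on the sums, since 1 cell held 22 of 71 Tnfrsf11b UMIs in TOE 2d 4h and 1 cell 38 of 183 in TOE 4d 4h, while in TO 4d 4h 1 cell held 26 of 57 Tnfsf11 UMIs. Without the top cell of each gene, the ratio was 2.46, 2.10, 0.574 and 6.00 in TO and 0.286, 2.90, 0.290 and 5.67 in TOE, and the intervals of TOE 4d 4h (0.200 to 0.411) and TOE 2d 4h (0.146 to 0.526) then overlapped that of TO 4d 4h (0.357 to 0.909).

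**Figure D5:**
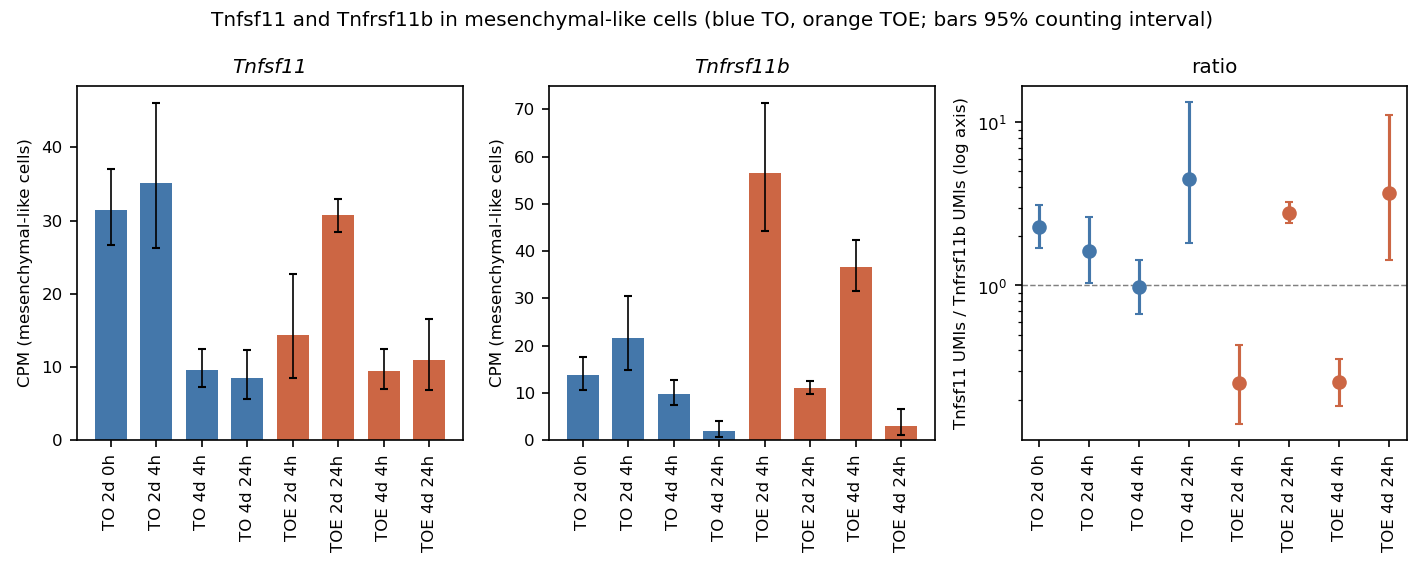
Tnfsf11 and Tnfrsf11b in mesenchymal-like cells, in CPM by library, and the ratio of their UMIs on a log axis, with 95% counting intervals; blue is TO, orange TOE, and the dashed line a ratio of 1. TOE 2d 4h (0.254) and TOE 4d 4h (0.257) lie below every other library, with TO 4d 4h next at 0.983.

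Of the 1277 mesenchymal-like cells, 379 had Tnfsf11 UMIs, 254 had Tnfrsf11b UMIs and 73 had both. Sub-clusters were named from fixed markers. Among those of at least 50 cells, Tnfsf11 was highest in a marrow reticular-like sub-cluster (88 cells, 59.3 CPM), followed by an unnamed sub-cluster (413 cells, 37.1 CPM, 723 UMIs; leading genes included Atp6v0d2, the chemokine genes Xcl1 and Ccl5 and the macrophage-expressed F13a1) and a chondrocyte-like sub-cluster (104 cells, 31.2 CPM). This order rests on the libraries summed. Without TOE 2d 24h the 3 levels were 66.6, 37.2 and 26.3 CPM, whereas in TOE 2d 24h alone they were 31.4 CPM (15 cells), 37.0 CPM (331 cells) and 57.4 CPM (13 cells), with overlapping intervals. It was low in a sub-cluster of 296 cells (6.32 CPM) that raised all 8 osteoblast markers, with the plasma-cell genes Igha and Jchain and the mast-cell gene Cpa3 beside Bglap among its leading genes. It was also low in fibroblast-like cells (190 cells, 3.60 CPM), whose leading genes included the tendon genes Kera and Tnmd. A small osteoblast-like sub-cluster led by Dmp1, an osteocyte gene, had 32 cells, 0 Tnfsf11 UMIs and 53.6 CPM of Tnfrsf11b, or 28.7 CPM (18.4 to 42.6) without TOE 2d 4h, of which 2 cells held 25 of its 49 UMIs. In the other named sub-clusters Tnfrsf11b lay between 10.6 and 17.8 CPM, and without TOE 2d 4h between 9.21 and 13.6 CPM. The marrow reticular-like value moved the most, from 17.8 to 9.72 CPM (5.44 to 16.0).

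The makeup of the mesenchymal-like cells differed between libraries. The unnamed sub-cluster of 413 cells came to 331 cells from TOE 2d 24h, and in the pair 4d 4h it held 7 cells of TO and 35 cells of TOE, with 5 and 94 Tnfrsf11b UMIs. Fibroblast-like cells of that pair numbered 125 in TO and 31 in TOE, with 44 and 22 Tnfrsf11b UMIs. In TOE 2d 4h, 25 of the 71 Tnfrsf11b UMIs came from 2 cells of the Dmp1-led sub-cluster, 18 from 24 cells of the sub-cluster of 296 and 15 from 9 marrow reticular-like cells. The part of this makeup in the difference between TOE and TO was not tested.

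Stromal regulators of RANKL and osteoprotegerin were read in the same cells. The parathyroid hormone receptor Pth1r, through which the hormone raises RANKL, was at 209 CPM with 87.0% of its UMIs in mesenchymal-like cells, and the oncostatin M receptor Osmr at 86.9 CPM with 84.2%. Il11 (77.6%) and Wnt5a (82.8%) were as centred on these cells, at 3.85 and 23.2 CPM. At 4d 4h, 2 of 12 stromal genes were at least 2-fold higher in TOE, Pth1r (log2 ratio 1.47) and Il11 (3.40), against 10.6% of all genes called in either direction in this pair, and 5 were lower: Ptger4 (-1.32), Il6 (-1.17), Osmr (-1.13), Il6st (-1.09) and Il34 (-1.02). At 2d 4h, Wnt5a (1.50) and Il6 (1.23) were higher and Sema3a, whose product restrains osteoclast formation, was lower (-1.33), in a pair in which 9.39% of all genes were called. At 4d 24h, Sema3a (2.21), Il34 (2.18), Il6 (2.17) and Wnt5a (2.13) were higher, in a pair in which 18.7% of all genes were called, 1628 of them higher and 392 lower. TO 4d 24h was the lowest library for each of these genes, at 4.08, 2.19, 1.88 and 4.08 CPM. Of its 99 mesenchymal-like cells, 80 lay in the osteoblast-like sub-cluster of 296 and 0 were chondrocyte-like. In TOE 4d 24h these were 21 and 27 of 80 cells. The part of this makeup in these ratios was not tested. No gene of this list was at least 2-fold different in the same direction in all 3 pairs.

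In B-cell-like cells, Tnfsf11 was lower in the libraries of 4 h than in 3 of the 4 others. It was at 5.94, 0.626, 0.417 and 3.53 CPM in the TO libraries, on 370, 27, 19 and 193 UMIs, and at 0.506, 3.10, 0.516 and 0.0436 CPM in the TOE libraries, on 35, 130, 21 and 2 UMIs. The 4 libraries of 4 h lay between 0.417 and 0.626 CPM, TO 2d 0h, TO 4d 24h and TOE 2d 24h lay above, and TOE 4d 24h below. A cluster of 5521 B-cell-like cells led by histone genes held 526 of the UMIs. It had 274 UMIs in 1567 cells of TO 2d 0h, 151 in 1411 cells of TO 4d 24h and 100 in 926 cells of TOE 2d 24h, but 1 UMI in 1164 cells of TOE 4d 24h. Its 4 h libraries, with 94 to 139 cells each, had 0 UMIs, with intervals that reached 6.11 to 8.43 CPM, which lay below the interval of TO 2d 0h (9.89 to 12.6 CPM). At this number of cells, a level below that of TO 4d 24h (5.10 to 7.06 CPM) was not detectable in any of them, and one below that of TOE 2d 24h (6.73 to 10.1 CPM) was detectable in TO 4d 4h alone. Another cluster of 6619 B-cell-like cells (median 11136 UMIs) had 1355 and 1351 cells in TO 2d 4h and TO 4d 4h and 2567 and 1148 in TOE 2d 4h and TOE 4d 4h, but 9 to 128 in each of the others. Its Tnfsf11 levels were 1.06 (0.629 to 1.68), 0.856 (0.489 to 1.39), 0.556 (0.329 to 0.878) and 0.967 (0.529 to 1.62) CPM in those 4 libraries. The histone cluster thus held mainly cells of the 0 h and 24 h libraries and this cluster mainly cells of the 4 h libraries.

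A second B-cell-like cluster, led by the early marker Dntt, was present in all libraries and had 157 Tnfsf11 UMIs in 2630 cells. Its level was 15.8, 0.929, 0.707 and 11.8 CPM in TO and 2.63, 10.0, 1.28 and 0 CPM in TOE. The 4 h libraries (0.707 to 2.63 CPM) again lay below TO 2d 0h, TO 4d 24h and TOE 2d 24h, and the 203 cells of TOE 4d 24h held no UMI, with an interval that reached 1.91 CPM. Only 1 of 63764 B-cell-like cells had both Tnfsf11 and Tnfrsf11b UMIs.

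Genes with the most similar pattern were sought over 97 points, each a population in a library with at least 30 cells, by Pearson correlation of log2(CPM + 1). The points share libraries and differ in depth, and the values are descriptions. Atp6v0d2 was closest to LOC120103614 (0.949), Mt3 (0.941) and Nyap2 (0.939), and Tnfrsf11b to the matrix gene Fmod (0.938), Steap2 (0.935) and Itgbl1 (0.932). Ctsk was closest to Slc6a8 (0.898), Cspg4 (0.877) and Gal (0.868), and Dcstamp to Clec4a (0.875), Cda (0.861) and Atp6v0c (0.826). Ocstamp and Tnfrsf11a had the same 3 nearest genes, St18 (0.856 and 0.864), Erbb3 (0.835 and 0.860) and Ccl9 (0.834 and 0.865). Tnfsf11 was closest to Scrn1 (0.840), Fgfr2 (0.816) and Podnl1 (0.815), Nfatc1 to Mapre2 (0.830), Septin9 (0.807) and Rasd1 (0.804), and Acp5 to Pax8 (0.801), Src (0.798) and Slc16a7 (0.797).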

How the data were processed

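Single-cell libraries (10x Genomics Chromium, polyA RNA) from 8 conditions were used. The authors deposited raw UMI counts per gene and barcode, without normalization; the submitters' processing notes name Cell Ranger 9.0.0, Seurat, R 4.0.3 and the builds GRCh38 and mRatBN7.2, without saying which was used for what. Barcodes under 200 genes or over 20% mitochondrial UMIs were dropped, as were doublets by a Scrublet score of 0.25. Cells were clustered with scanpy 1.11.5 (2000 variable genes, 30 components, 15 neighbours, Leiden resolution 1, or 2 for the Ctsk cluster), without integration. Clusters were named from fixed markers by a scoring chosen after the clusters were seen; those of low depth stayed unnamed. Levels were sums over cells with exact Poisson, Clopper-Pearson or conditional 95% intervals, and log2 ratios used a prior of 0.5 UMI. With 1 library per condition, no difference between conditions was tested. Dixon's criterion was applied within each arm only to flag outlying libraries. Scripts for ratios and intervals were tested on simulated data.

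The members, gene lists and comparisons were chosen with earlier results of these data known. Named were all 9 members, the extremes of each list, the 15 genes with the largest ratio in cells with several osteoclast genes and the 3 genes most like each member; features named beyond this were chosen after their values were seen. A listed gene that the rule would name is not reported here. Alternatives were a stricter filter (500 genes, 10% mitochondrial UMIs), no filter, doublets kept, other resolutions, priors, minimum counts, denominators, thinning and gene sets, and leaving out each library. Restricting the count to monocyte-like, macrophage-like and Ctsk-cluster cells, counting the Ctsk cluster, and leaving it out were added after the data were seen.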

Additional observations from a re-analysis of the deposited data

Results flagged for a closer look

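The share of Ctsk-cluster cells in TOE over that in TO pointed in different directions in the matched pairs, with 0.353 in the pair 2d 4h, 2.97 in the pair 4d 4h and 0.0561 in the pair 4d 24h. This difference between pairs was not tested, since each arm of a pair was 1 library. Among the 4 TOE libraries, which differ in day and hour, TOE 2d 24h stood far from the other three by Dixon's criterion for Ctsk, at 179 CPM, and for Tnfsf11, at 6.46 CPM. These were 2 of the 18 sets of 4 libraries examined, 9 genes in each of 2 arms. Chance flags about 1 in 20 groups of samples from 1 distribution, and the TO library of the same time was not analysed here.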

How the results depend on the processing

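The share of cells with at least 3 osteoclast genes, TOE over TO, depended on the definition, and at 2d 4h it fell on either side of 1; the cause was not tested. At 2d 4h, where it was 1.16, it was 1.46 with at least 2 of 6 genes, 0.492 with at least 4 of 6 genes, 0.487 without Nfatc1, 0.435 and 0.897 after thinning to 2000 and 5000 UMIs, 0.806 counted only in monocyte-like, macrophage-like and Ctsk-cluster cells and 0.353 for the Ctsk cluster. At 4d 4h (1.26) it was 1.01 with at least 2 genes, 1.77 with at least 4, 1.84 without Nfatc1, 1.84 and 1.53 after thinning, 1.79 in those populations only, 2.97 for the Ctsk cluster and, reversed, 0.769 with monocyte-like, macrophage-like and multi-gene cells as the denominator. At 4d 24h (0.558) it was 0.990 with at least 2 genes, 0.109 with at least 4, 0.0919 without Nfatc1, 0.799 after thinning to 5000 UMIs, 0.957 with the other denominator and 0.0561 for the Ctsk cluster. The Ctsk cluster held 1863 cells under the stricter filter and 2161 with doublets kept, against 400.

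Members called in all cells at 2d 4h numbered 2 under the stricter filter, without a filter and without haemoglobin, mitochondrial and immunoglobulin UMIs. In monocyte-like and macrophage-like cells they numbered 2 at 2d 4h under the stricter filter. At 4d 4h they numbered 0 without a filter, with doublets kept or without the Ctsk cluster, and at 4d 24h 0 without that cluster. There the log2 ratios of Acp5 (0.10) and Ctsk (0.15) changed sign, but the ratios, 1.07 (0.888 to 1.29) and 1.11 (0.821 to 1.48), had intervals that held 1. The log2 ratio of Ctsk at 4d 4h also changed sign (-0.28). The cluster was chosen by Ctsk, so these changes follow in part from that choice. Members called in mesenchymal-like cells numbered 1 at 2d 4h with at least 100 UMIs, and at 4d 24h 1 under the stricter filter and 2 by UMIs per cell. Apart from leaving out the Ctsk cluster, the share of all genes called under these settings was not computed. These counts are therefore not set against a background and nothing is read from them. The ratio of Tnfsf11 to Tnfrsf11b taken over all cells was 8.38 in TO 2d 0h, 2.85 in TO 2d 4h, 1.67 in TO 4d 4h, 44.8 in TO 4d 24h, 0.558 in TOE 4d 4h and, now above 1, 1.11 in TOE 2d 4h. TOE 4d 24h was then at 3.89 (1.83 to 9.20), below TO 4d 24h (20.3 to 123), whereas the intervals in mesenchymal-like cells overlapped. Leaving out each library in turn left the share of Acp5 UMIs in B-cell-like cells at 62.8% to 73.9%, of Dcstamp in neutrophil-like cells at 64.1% to 70.5% and of Tnfrsf11b in mesenchymal-like cells at 88.8% to 90.5%. The share of Ctsk in monocyte-like, macrophage-like and Ctsk-cluster cells together (66.0%) lay at 55.0% to 67.5%, and that in the Ctsk cluster alone was 46.0% without TOE 2d 24h. The share of Tnfsf11 in mesenchymal-like cells lay at 28.2% to 57.3%, and B-cell-like cells led with 50.6% without TOE 2d 24h, an alternative chosen after the values were seen. No paired analysis was possible because the groups compared, each 1 day and hour of an arm, share only replicate number 1; a comparison of the arms over the 3 time points, which would take these as replicates, was not run.

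With 1 library a condition, intervals cover counting only, and the libraries also differ by rat and dissection. Ocstamp and Tnfrsf11b, at 469 and 742 UMIs, limit what single populations can show, and 0 UMIs in a small cluster does not show absence.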
